A study of Rattus norvegicus with 9 samples.

Results

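The 9 genes described here mark neurons that use gamma-aminobutyric acid (GABA) or handle that transmitter. They were chosen by name, as the rows of the deposited tables whose symbol is Gad1, Gad2, Slc32a1, Slc6a11, Dlx1, Dlx2, Lhx6, Calb1 or Calb2. Each name matched 1 row, so the group is 9 of 22050 genes. GABA is the main inhibitory transmitter of the cortex. It is made from glutamate by the decarboxylases Gad1 and Gad2, loaded into synaptic vesicles by Slc32a1, and taken back up by membrane transporters, of which Slc6a11 is found mostly on astrocytes. Cortical GABA neurons arise in the ventral forebrain, where Dlx1 and Dlx2 set their fate and Lhx6 directs those of the medial ganglionic eminence. In the mature cortex, the calcium-binding proteins calbindin (Calb1) and calretinin (Calb2) distinguish subsets of them, although neither protein is confined to GABA neurons.

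RNA was sequenced from primary cortical neurons of Sprague Dawley rats at embryonic day 19, in 9 samples that formed 3 groups of 3. The first group (OGD with Wnt3a plus Rspondin 1) was deprived of oxygen and glucose (OGD), which models stroke in a dish, and was given 100 ng/ml Wnt3a with 50 ng/ml Rspondin 1, for which 24 h is stated. Wnt3a is a secreted ligand of the Wnt/beta-catenin pathway and Rspondin 1 makes cells more sensitive to such ligands. The next group went through OGD alone, at 1% oxygen in medium lacking glucose and pyruvate for 4.5 h, and was returned to normal oxygen and regular medium. The oxygen level and hours are stated for OGD alone only. The control group was untreated. All samples shared the strain, the stage and the medium with B27 supplement before treatment. The sources used here do not give the time from OGD to harvest. The deposited tables call OGD alone the vehicle group, although its labels name no vehicle. Cultures with Wnt3a plus Rspondin 1 but no OGD were not analysed here. The purpose stated for the series was to find genes that Wnt3a plus Rspondin 1 regulate in neurons under OGD.

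Total counts ran from 14285914 to 25048521 per library. OGD replicate 1 stood apart from the other OGD libraries, with a chi-square of 29.7 and 23.3 per degree of freedom against them, while other pairs of replicates lay between 3.69 and 11.8. No label says whether the replicates of a group are separate cultures, so the p-values reflect only how these libraries vary, and that variation may be technical. The controls held the neuron markers that the label calls for, with 12 markers summing to 3501 to 3710 FPKM (fragments scaled to gene length and library total), and also RNA of astrocytes, whose 10 markers summed to 2502 to 2670 FPKM. In bulk RNA, fewer cells of a type and less RNA per cell cannot be told apart.

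After OGD, 8 of the 9 genes fell relative to control and none rose, but by very different amounts. Lhx6, Slc32a1, Gad2 and Calb2 fell most, to 9.47%, 11.2%, 12.6% and 23.2% of the control level. Gad1 stood at 45.4% and Calb1 at 66.4%. Slc6a11 stood at 83.3% and Dlx1 at 81.0%, in calls that did not hold in every setting, and Dlx2 did not pass the test. These levels are relative to the rest of the RNA in each library, not amounts per culture or per cell. The test was edgeR's quasi-likelihood test on the counts with Benjamini-Hochberg adjustment over 13693 genes and a threshold of 0.05. OGD moved much of the transcriptome, as 73.1% of tested genes passed, 36.3% as higher and 36.8% as lower, so a fall past the threshold is common. A fall of at least 2 on the log2 scale was seen for 4 of the 9 genes and for 9.25% of all genes tested. The median log2 change of the 9 genes was -1.14, against 0.02 for all genes tested.

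**Figure D1:**
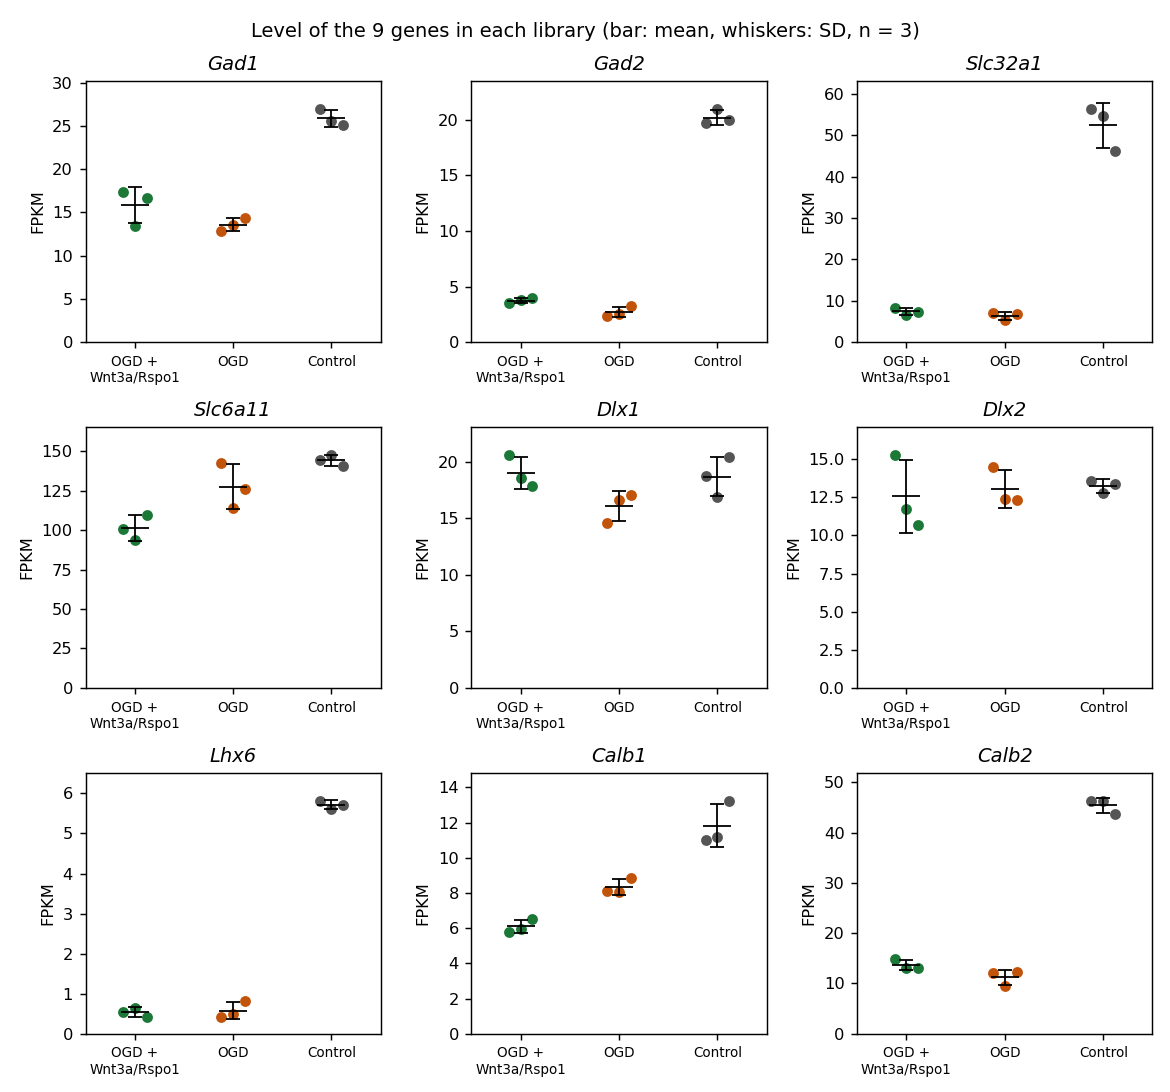
Level of each of the 9 genes in FPKM (vertical axes, from 0) in OGD with Wnt3a plus Rspondin 1 (green), OGD (orange) and control (grey). Points are libraries, the bar is the mean and the whiskers the SD (n = 3). Gad2, Slc32a1, Lhx6 and Calb2 are far below control in both OGD groups, while the libraries of Dlx1 and of Dlx2 overlap between OGD and control.

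Both enzymes of GABA synthesis fell. Gad2, the decarboxylase enriched at nerve terminals, had 2.39, 2.52 and 3.23 FPKM in OGD libraries, against 19.68, 20.98 and 19.97 FPKM in control libraries. Its log2 change, given throughout with its SE, was -2.98 ± 0.11 (adjusted p = 3.71e-10), a 7.91-fold lower level, and the groups lay far apart. Gad1, the decarboxylase spread through the cell body that makes most of the brain's GABA, had 12.8, 13.6 and 14.4 FPKM in OGD libraries, against 27.0, 25.6 and 25.1 FPKM in control libraries. It fell by 1.14 ± 0.09 (adjusted p = 1.19e-07), 2.20-fold, again with no overlap. Gad2 stood at 0.186, 0.186 and 0.225 of the Gad1 FPKM after OGD, and at 0.730, 0.821 and 0.796 of it in control. The log2 ratio differed by -1.98 ± 0.10 between OGD and control, and the exact two-sided permutation test gave the smallest p that 3 against 3 libraries allow (p = 0.1, adjusted over 5 ratios p = 0.125).

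The start regions of 4 genes are shown because they differ in the size of the fall: both decarboxylase genes, and Slc32a1 and Lhx6, which fell most. Each is 300 bases from RefSeq on the rat build GRCr8, 250 bases before the annotated start and 50 after it, read on the gene's strand. The windows lie at chr3:75777202-75777501 (Gad1, plus strand), chr17:89671468-89671767 (Gad2, plus strand), chr3:167686995-167687294 (Slc32a1, plus strand) and chr3:39853374-39853673 (Lhx6, minus strand). Capitals mark matches, on either strand, to any of 7 short motifs, none of which contains another.
Gad1: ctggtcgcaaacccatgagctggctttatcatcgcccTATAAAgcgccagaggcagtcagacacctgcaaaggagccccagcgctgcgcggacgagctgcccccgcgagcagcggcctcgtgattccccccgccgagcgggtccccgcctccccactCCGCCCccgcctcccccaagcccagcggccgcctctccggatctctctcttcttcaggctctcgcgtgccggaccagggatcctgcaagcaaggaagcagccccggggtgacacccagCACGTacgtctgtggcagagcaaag
Gad2: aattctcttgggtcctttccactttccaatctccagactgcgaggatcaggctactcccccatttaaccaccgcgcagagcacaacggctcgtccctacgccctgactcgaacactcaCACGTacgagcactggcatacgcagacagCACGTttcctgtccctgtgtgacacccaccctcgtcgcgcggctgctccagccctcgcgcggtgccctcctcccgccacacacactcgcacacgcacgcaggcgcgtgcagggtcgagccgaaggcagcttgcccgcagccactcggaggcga
Slc32a1: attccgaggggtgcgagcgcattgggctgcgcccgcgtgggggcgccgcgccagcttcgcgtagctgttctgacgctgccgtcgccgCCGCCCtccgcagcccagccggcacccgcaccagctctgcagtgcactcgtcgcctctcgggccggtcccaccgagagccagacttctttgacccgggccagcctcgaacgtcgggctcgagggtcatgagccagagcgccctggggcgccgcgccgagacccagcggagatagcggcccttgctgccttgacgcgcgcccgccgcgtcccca
Lhx6: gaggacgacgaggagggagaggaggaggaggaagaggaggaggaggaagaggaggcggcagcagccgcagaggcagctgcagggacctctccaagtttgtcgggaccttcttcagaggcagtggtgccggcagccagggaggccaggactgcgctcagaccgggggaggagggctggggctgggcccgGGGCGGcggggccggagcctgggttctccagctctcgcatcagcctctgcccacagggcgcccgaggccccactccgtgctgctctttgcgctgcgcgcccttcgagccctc
Of the 9 genes, 6 matched a start region in RefSeq; the others were Dlx2, Calb1 and Calb2. The motifs were TAATTA (a homeodomain core), TATAAA (the TATA box), GGGCGG (the Sp family), TGACGTCA (the cAMP response element), CTTTGAT (a TCF/LEF core), ACGTG (part of the hypoxia response element) and CAGATG (an E-box). The hypoxia core ACGTG was matched in Gad2, at 132 and 103 bases before the start, and in Gad1 once, after the start, and is held by 19.3% of all 33469 start regions. Its match was in none of the other 4 windows. The Sp motif GGGCGG was matched in Gad1, Slc32a1, Slc6a11, Dlx1 and Lhx6, with 5 matches in Slc6a11, and is held by 33.1% of all start regions. The TATA letters were matched in Gad1 alone among the 6, at 213 bases before the start, and are held by 14.2%. The homeodomain core, the cAMP response element, the TCF/LEF core and the E-box were matched in none of the 6 windows. All start regions hold the homeodomain core in 5.36%, the cAMP response element in 1.83%, the TCF/LEF core in 3.63% and the E-box in 16.6%. The 6 windows were rich in G and C, at 63.7% to 73.7%, against a median of 51.7% for all start regions. These matches are descriptions of the letters, not of binding.

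Slc32a1, the vesicular transporter that loads GABA and glycine, had 6.93, 5.27 and 6.71 FPKM in OGD libraries, against 56.4, 54.8 and 46.2 FPKM in control libraries. It fell by 3.15 ± 0.13 on the log2 scale (adjusted p = 6.37e-10), 8.90-fold. Slc32a1 stood at 0.540, 0.389 and 0.467 of the Gad1 FPKM after OGD, and at 2.09, 2.14 and 1.84 in control, so it was below Gad1 in each OGD library and above it in each control library. The log2 ratio differed by -2.13 ± 0.15 between OGD and control (exact permutation p = 0.1, adjusted p = 0.125).

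Slc6a11, the GABA transporter GAT-3 of astrocytes, was the most abundant of the 9 genes in every library. It had 142, 114 and 126 FPKM in OGD libraries, against 144, 148 and 141 FPKM in control libraries. The groups overlapped, since OGD replicate 1 lay within the control range, and the log2 change was -0.26 ± 0.09 (adjusted p = 0.0194). The call was lost when library totals replaced TMM factors (log2 change -0.18, adjusted p = 0.0827). With limma it was lost on log2(FPKM + 1) (adjusted p = 0.0810) and on log2(FPKM + 0.1) (adjusted p = 0.0809). It was also lost without control replicate 1 (0.0520), control replicate 2 (0.0764), OGD replicate 2 (0.0959) or OGD replicate 3 (0.0537). Without OGD replicate 1 the change was -0.36 (adjusted p = 0.000586). Beside it, 9 of 10 other astrocyte markers rose and none fell (median log2 change 1.20), and their summed level was 6667 to 7280 FPKM in OGD, against 2502 to 2670 FPKM in control. Slc6a11 stood at 11.1, 8.39 and 8.79 times the Gad1 FPKM in OGD libraries and at 5.34, 5.78 and 5.60 times in control libraries, with Gad1 itself 2.20-fold lower in OGD. The log2 ratio differed by 0.75 ± 0.13 between OGD and control (exact permutation p = 0.1, adjusted p = 0.125).

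Among the transcription factors, Lhx6 fell most, Dlx1 fell by far less and Dlx2 did not pass the test. Lhx6, which directs GABA neurons toward the parvalbumin and somatostatin classes, had 7, 13 and 15 counts in OGD libraries, against 138, 103 and 169 counts in control libraries. In FPKM these were 0.42, 0.50 and 0.81 in OGD, against 5.82, 5.60 and 5.72 in control. It fell by 3.40 ± 0.24 on the log2 scale (adjusted p = 4.21e-08), 10.6-fold, and its few reads after OGD make its interval wide (95% interval -3.92 to -2.88). On log2(FPKM + 1), where the added 1 is larger than the level after OGD, the change was -2.10.

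Dlx1, a homeodomain factor of the ventral forebrain, had 14.6, 16.6 and 17.1 FPKM in OGD libraries, against 18.8, 16.9 and 20.4 FPKM in control libraries. The groups overlapped, and the log2 change was -0.30 ± 0.09 (adjusted p = 0.0112). This call was lost with library totals (log2 change -0.22, adjusted p = 0.0588) and without control replicate 3 (log2 change -0.23, adjusted p = 0.0695). With limma it was lost on log2(FPKM + 1) (adjusted p = 0.0682) and on log2(FPKM + 0.1) (adjusted p = 0.0678). Dlx2, which neighbours Dlx1 in RefSeq and acts with it, had 14.5, 12.4 and 12.3 FPKM in OGD libraries, against 13.6, 12.8 and 13.4 FPKM in control libraries. Its log2 change was -0.11 ± 0.14 (95% interval -0.41 to 0.20, adjusted p = 0.496). The log2 ratio of Dlx2 to Dlx1 differed by 0.19 ± 0.16 between OGD and control (exact permutation p = 0.5). The whole spans of Dlx1 and Lhx6 each overlap a long noncoding RNA gene in RefSeq. Overlap of exons was not examined, and no source says whether strand was used in counting. Whether any reads were shared within each pair is therefore not known.

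The calcium-binding genes also parted. Calb2, calretinin, had 12.04, 9.53 and 12.19 FPKM in OGD libraries, against 46.3, 46.4 and 43.6 FPKM in control libraries. It fell by 2.10 ± 0.11 on the log2 scale (adjusted p = 2.58e-09), 4.30-fold. Calb1, calbindin, had 8.13, 8.06 and 8.86 FPKM in OGD libraries, against 11.03, 11.20 and 13.25 FPKM in control libraries. It fell by 0.59 ± 0.11 (adjusted p = 0.000227), 1.51-fold, and the groups did not overlap. The FPKM of Calb2 was 1.48, 1.18 and 1.38 times that of Calb1 in OGD libraries and 4.19, 4.14 and 3.29 times in control libraries, a log2 ratio difference of -1.52 ± 0.15 (exact permutation p = 0.1, adjusted p = 0.125). In all, 6 of the 9 genes had OGD libraries wholly below the controls, as had 34.6% of all tested genes. Without OGD replicate 1, the library that stood apart, the log2 changes were -1.07 for Gad1, -2.92 for Gad2, -3.24 for Slc32a1, -3.26 for Lhx6, -0.58 for Calb1 and -2.17 for Calb2, each past the threshold. They were -0.25 for Dlx1 (adjusted p = 0.0248) and -0.20 for Dlx2, which did not pass.

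**Figure D2:**
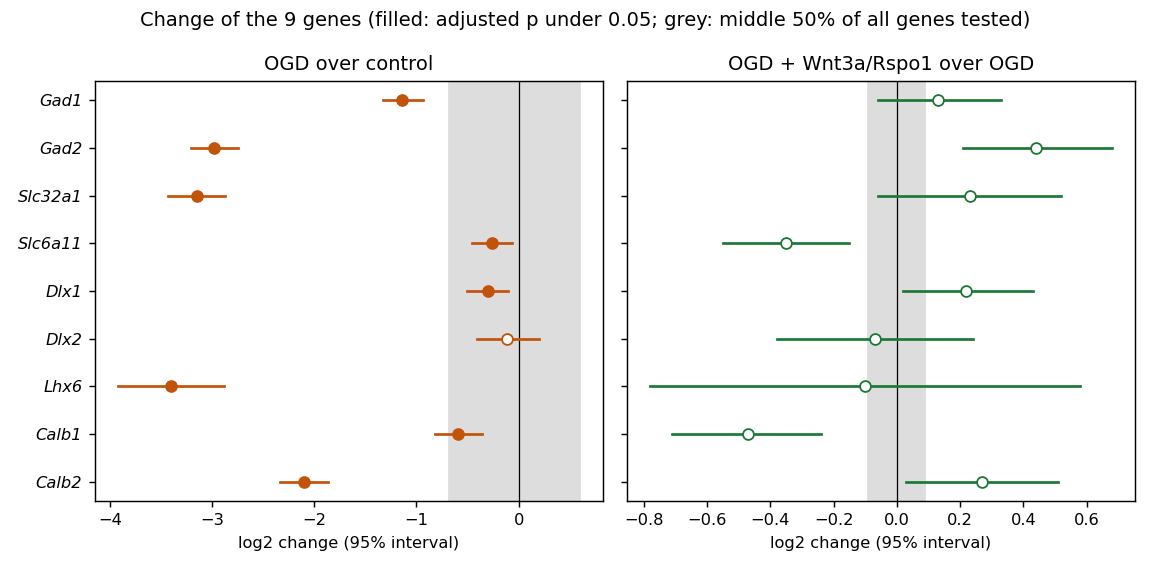
Log2 change of each gene (points) with its 95% interval (lines) for OGD over control (left) and OGD with Wnt3a plus Rspondin 1 over OGD (right); the horizontal scales differ. Filled points passed an adjusted p of 0.05 and the grey band is the middle 50% of all genes tested. On the left, changes run from -3.40 for Lhx6 to -0.11 for Dlx2; on the right, none is filled.

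**Figure D3:**
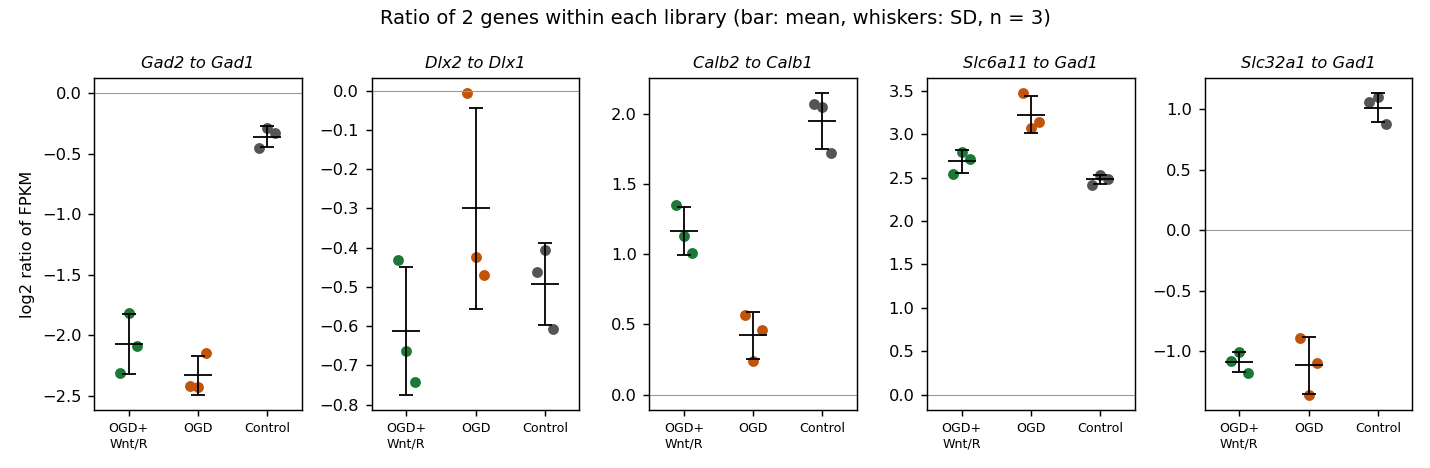
Log2 ratio of the FPKM of 2 genes within each library (vertical axes) in OGD with Wnt3a plus Rspondin 1, OGD and control, with the mean (bar) and SD (whiskers, n = 3). The ratios of Gad2, Slc32a1 and Slc6a11 to Gad1 and of Calb2 to Calb1 do not overlap between OGD and control, while that of Dlx2 to Dlx1 does.

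The order of the levels changed with these falls. In OGD with Wnt3a plus Rspondin 1, mean FPKM ran from Slc6a11 (101) through Dlx1 (19), Gad1 (15.8), Calb2 (13.7), Dlx2 (12.6), Slc32a1 (7.43), Calb1 (6.10) and Gad2 (3.74) to Lhx6 (0.537), and the libraries of Gad1 and Calb2, and of Calb2 and Dlx2, overlapped. In OGD the order was Slc6a11 (127), Dlx1 (16.1), Gad1 (13.6), Dlx2 (13.1), Calb2 (11.3), Calb1 (8.35), Slc32a1 (6.30), Gad2 (2.71) and Lhx6 (0.577), and among neighbours only the libraries of Gad1 and Dlx2 overlapped. In control it was Slc6a11 (144), Slc32a1 (52.5), Calb2 (45.4), Gad1 (25.9), Gad2 (20.2), Dlx1 (18.7), Dlx2 (13.2), Calb1 (11.8) and Lhx6 (5.71), with overlap between Slc32a1 and Calb2, between Gad2 and Dlx1, and between Dlx2 and Calb1. Dlx1 thus stood in place 2 of 9 in both OGD groups and in place 6 in control, while Slc32a1 stood in place 2 in control.

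Wnt3a plus Rspondin 1 given with OGD was set against OGD to ask whether the proteins changed these genes. None of the 9 passed the adjusted threshold by edgeR, in a comparison where 0.197% of all tested genes did. At an unadjusted p under 0.05 there were 5 of the 9 genes, against 5.73% of all genes, and DESeq2 called Gad2 and Calb1 (adjusted p = 0.0437 and 0.0486) while limma on FPKM called none of the 9. The libraries of the 2 groups did not overlap for 5 genes, 3 higher and 2 lower, as for 9.73% of all genes tested (5.86% higher and 3.87% lower). The members were chosen with earlier results known, so these shares are a description.

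Gad2 had 3.49, 3.80 and 3.93 FPKM in libraries with Wnt3a plus Rspondin 1, against 2.39, 2.52 and 3.23 FPKM in OGD libraries. Its log2 change was 0.44 ± 0.11 (95% interval 0.21 to 0.68, unadjusted p = 0.00123, adjusted p = 0.187), and it passed by edgeR once OGD replicate 3 was left out (log2 change 0.58, adjusted p = 0.0485). The level remained far below the control range. Calb1 lay on the other side, at 5.79, 5.96 and 6.54 FPKM with Wnt3a plus Rspondin 1, against 8.13, 8.06 and 8.86 FPKM in OGD. Its log2 change was -0.47 ± 0.11 (95% interval -0.71 to -0.24, adjusted p = 0.154). Calb2 had 14.8, 13.1 and 13.1 FPKM with Wnt3a plus Rspondin 1, against 12.04, 9.53 and 12.19 FPKM in OGD, a log2 change of 0.27 ± 0.11 (adjusted p = 0.796). The ratio of Calb2 to Calb1 was accordingly 2.56, 2.19 and 2.01 with Wnt3a plus Rspondin 1 and 1.48, 1.18 and 1.38 in OGD, without overlap (log2 ratio higher by 0.74 ± 0.14, exact permutation p = 0.1, adjusted p = 0.25).

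Slc6a11 had 101, 93.6 and 110 FPKM with Wnt3a plus Rspondin 1, against 142, 114 and 126 FPKM in OGD. The groups did not overlap, and the log2 change was -0.35 ± 0.09 (95% interval -0.55 to -0.15, adjusted p = 0.270). The 10 other astrocyte markers summed to 6273 to 6585 FPKM with Wnt3a plus Rspondin 1 and to 6667 to 7280 FPKM in OGD. Gfap, the most abundant of them, averaged 2980 ± 179 FPKM with Wnt3a plus Rspondin 1 and 3500 ± 255 FPKM in OGD (SD). The median log2 change of the 10 markers was -0.07. Of them, 1 passed the threshold and was higher, the gap junction gene Gja1 at 0.38 ± 0.06 (adjusted p = 0.0404). The part of these markers in the Slc6a11 value was not tested. Dlx1 had 20.6, 18.5 and 17.9 FPKM with Wnt3a plus Rspondin 1, against 14.6, 16.6 and 17.1 FPKM in OGD, a log2 change of 0.22 ± 0.09 (adjusted p = 0.824). Log2 changes were 0.13 ± 0.09 for Gad1 and 0.23 ± 0.13 for Slc32a1, with 95% intervals of -0.06 to 0.33 and -0.06 to 0.52. They were -0.07 ± 0.14 for Dlx2 and -0.10 ± 0.31 for Lhx6 (95% interval -0.78 to 0.58), where 8 to 13 counts per library with Wnt3a plus Rspondin 1 and 7 to 15 in OGD allow no finer statement. In the authors' deposited table for this comparison, the lowest FDR among the 9 genes was 0.203, for Slc6a11. Without OGD replicate 1, the log2 changes were 0.38 for Gad2, -0.48 for Calb1 and -0.25 for Slc6a11 (adjusted p = 0.283, 0.171 and 0.395).

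Against control, the cultures with OGD and Wnt3a plus Rspondin 1 had 7 of the 9 genes lower, where 72.6% of all tested genes passed, 36.6% as higher and 36.0% as lower. Both comparisons with control use the same 3 control libraries. The log2 change was -2.54 ± 0.10 for Gad2, beside -2.98 for OGD alone, and -2.92 ± 0.13 for Slc32a1, beside -3.15. For Gad1 it was -1.01 ± 0.09, beside -1.14, for Calb2 -1.84 ± 0.11, beside -2.10, and for Lhx6 -3.50 ± 0.24, beside -3.40. For Calb1 it was -1.07 ± 0.11 (adjusted p = 1.25e-06), beside -0.59 for OGD alone, and for Slc6a11 -0.61 ± 0.09 (adjusted p = 4.67e-05), beside -0.26. Dlx1 at -0.08 ± 0.09 and Dlx2 at -0.18 ± 0.14 did not pass (adjusted p = 0.446 and 0.263), and Dlx1 was slightly above control with library totals (0.02).

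Other genes of GABA handling were read from a list of 14 names, of which 11 were tested. After OGD 6 rose, 4 fell and 1 did not pass, with a median log2 change of 0.28, against 0.02 for all genes tested (middle 50% from -0.68 to 0.60). Of all genes tested, 36.3% rose and 36.8% fell. Slc38a1, a glutamine importer of neurons, averaged 21.2 ± 1.10 FPKM in OGD and 46.9 ± 2.39 FPKM in control (SD, n = 3 each) and fell by 1.24 ± 0.09 on the log2 scale. Akr7a2, which reduces succinic semialdehyde, averaged 39.3 ± 3.01 FPKM in OGD and 15.7 ± 0.581 FPKM in control and rose by 1.24 ± 0.09, and Aldh9a1, which oxidises aminobutyraldehyde to GABA, rose by 1.06 ± 0.07. Slc38a3, a glutamine transporter of astrocytes, rose by 1.60 ± 0.13, to 437 ± 70.2 FPKM in OGD, against 136 ± 14.7 FPKM in control. Named after its value was seen, the GABA transaminase gene Abat rose by 0.85 ± 0.10. Pdxk was the gene that did not pass (0.00 ± 0.13).

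Of 19 further transcription factors of interneurons, 17 were tested, and 4 rose, 10 fell and 3 did not pass (median log2 change -0.51). By comparison, 36.3% of all genes tested rose and 36.8% fell. The median for all genes tested was 0.02, and the list's median lay between their lower and upper quartiles (-0.68 and 0.60). Satb1, a chromatin organiser downstream of Lhx6, averaged 13.4 ± 0.909 FPKM in OGD and 42.4 ± 0.614 FPKM in control and fell by 1.75 ± 0.08. Sox6, a factor of both interneurons and oligodendrocyte precursors, rose by 1.40 ± 0.10, to 26.4 ± 0.609 FPKM in OGD, against 9.49 ± 0.764 FPKM in control. Dlx5, another Dlx factor, which was picked with its value already seen, fell by 1.06 ± 0.19. Beside these values, 6 of 8 progenitor markers rose and 1 fell (median 1.47), and of 9 oligodendrocyte lineage markers 6 rose and 3 fell (median 0.90).

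Of 24 further interneuron subtype and calcium-binding genes, 21 were tested, and 18 fell, 1 rose and 2 did not pass (median log2 change -2.47). Medians were -2.60 for neuron markers and -2.36 for excitatory neuron markers, and differences between these lists were not tested. Among all genes tested, 36.8% fell and 36.3% rose. Npy, the neuropeptide Y gene, averaged 20 ± 5.73 FPKM in OGD and 199 ± 2.63 FPKM in control and fell by 3.42 ± 0.17. The neurexophilin gene Nxph1, the receptor tyrosine kinase gene Kit and the cholecystokinin gene Cck fell too, with log2 changes of -3.27 ± 0.13 for Nxph1, -2.79 ± 0.14 for Kit and -2.45 ± 0.13 for Cck. Pvalb, parvalbumin, was the gene that rose, by 1.85 ± 0.31, to 8.32 ± 2.53 FPKM in OGD, against 2.12 ± 0.849 FPKM in control, from 231 counts over the OGD libraries and 72 over the control libraries. When Wnt3a plus Rspondin 1 was added to OGD, none of the 49 genes tested from the 3 lists passed by edgeR, where 0.197% of all tested genes did. At an unadjusted p under 0.05 there were 5 of the 49, against 5.73% of all genes tested. DESeq2 called 2 of the 49 and limma on FPKM none.

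**Figure D4:**
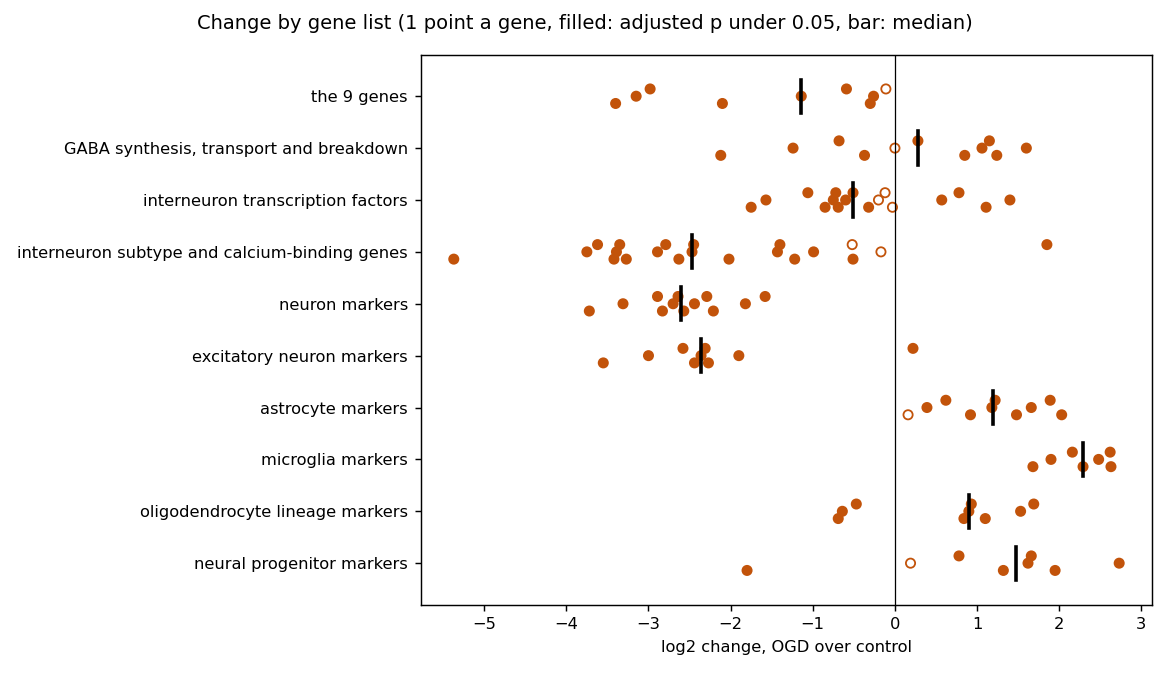
Log2 change in OGD over control (horizontal axis) for the 9 genes, the 3 lists of related genes and the markers of 6 cell types, with 1 point per tested gene and a bar at the list's median. Filled points passed an adjusted p of 0.05. The 9 genes spread from the range of the neuron markers (median -2.60) up to -0.11 for Dlx2.

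Of 12 neuron markers, 12 fell after OGD, with a median log2 change of -2.60. Excitatory neuron markers gave 8 lower and 1 higher of 9 tested (median -2.36). Neuron markers summed to 608 to 826 FPKM in OGD, against 3501 to 3710 FPKM in control, and excitatory markers to 58.1 to 83.8 FPKM in OGD, against 343 to 360 FPKM in control. Set beside the neuron median, Gad2, Slc32a1 and Lhx6 fell further, by a log2 difference of -0.38, -0.55 and -0.80. Their changes lay within the range of the 12 neuron markers, from -3.72 (Syt1) to -1.58 (Map2), as did that of Calb2. Calb2, Gad1 and Calb1 fell less than the neuron median, with log2 differences of 0.50, 1.46 and 2.01. Dlx1 and Slc6a11 also fell less, at 2.30 and 2.34, and Dlx2, which did not pass the test, stood at 2.49. None of these differences was tested. Of 9 microglia markers 7 were tested, and 7 rose. Microglia markers summed to 21.8 to 23.9 FPKM in OGD, against 3.36 to 5.68 FPKM in control. The part of these shifts in the values of the 9 genes was not tested. With Wnt3a plus Rspondin 1 the neuron markers summed to 602 to 798 FPKM, and none of the 12 passed against OGD alone by edgeR, with none at an unadjusted p under 0.05 and none by DESeq2 or limma.

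The genes most like Gad1, Slc6a11 and Calb1 in pattern were sought among 11518 other genes with a mean of at least 1 FPKM. The measure was the root mean square distance between centred log2 CPM values over the 9 libraries. These CPM are counts scaled to library totals adjusted by the TMM factors. The nearest to Gad1 were Tent4a (distance 0.052), Plcb4 (0.061) and Srgap2 (0.064), with log2 changes after OGD of -1.10, -1.21 and -1.11. The nearest to Slc6a11 were Nav2 (0.069), Gsdme (0.070) and Sptbn1 (0.072), at -0.34, -0.22 and -0.34. Those nearest to Calb1 were farther away, Col5a3 (0.114), Adora1 (0.118) and Slc19a2 (0.134), at -0.73, -0.68 and -0.67.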

How the data were processed

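The authors deposited tables of 22050 rat Ensembl genes, 1 per pair of groups, with whole-number counts and FPKM per library, per the file headers. The authors also deposited log2 fold values, made from the mean FPKM of each group. The sources used here do not give the test behind the p-value and FDR columns the authors deposited, the rat build, the annotation or the counter. Per the submitters' processing notes, Bowtie 0.12.2 was a tool and mm8 and mm9, builds of the mouse, were listed, with no role named. Libraries were made from 1 µg of RNA, per the labels' protocols. Columns named WR were matched to titles that write these letters in the other order.

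For the tests, edgeR 4.0.16 (R 4.3.3) took the counts as deposited. Its filterByExpr, set to a minimum count of 10 and a total of 15, left 13693 genes, among them all 9 members. TMM factors were 0.943 to 1.033, and 1 robust quasi-likelihood fit of 3 group means took in the 9 libraries. Standard errors come from the F statistic. Alternatives were RLE factors, library totals, no filter, a replicate block, only the 6 libraries compared, DESeq2 1.42.0, limma 3.58.1 on log2(FPKM + 1) and log2(FPKM + 0.1), and each library left out. The fit was tested on simulated data in which a small share of genes changed. That setting differs from OGD against control, where 73.1% of tested genes passed. Ratios were tested by exact permutation (SciPy 1.17.1).

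Members and lists were chosen with earlier results of these data known. All 9 members are named. From each list of related genes, the 4 with the smallest adjusted p after OGD, the largest rise and any gene past the threshold with Wnt3a plus Rspondin 1 against OGD were chosen for naming; some of them are not reported here. Likeness was sought for 3 members, among genes without placeholder symbols. Lists were matched by symbol, ignoring case: 52 of 57 related names matched.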

Additional observations from a re-analysis of the deposited data

How the results depend on the processing

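For the number of genes past the threshold, every alternative stayed within 1.5 times of 10012 for OGD against control and of 9941 for OGD with Wnt3a plus Rspondin 1 against control. The 27 genes past it when Wnt3a plus Rspondin 1 was added to OGD became 99 by DESeq2, 65 with a replicate block and 15 with only the 6 libraries compared, and 12 to 49 when 1 library was left out (12 without Wnt3a plus Rspondin 1 replicate 2, 17 without replicate 3, 13 without OGD replicate 2 and 49 without OGD replicate 1); the cause was not tested. Replicate numbers were not treated as pairs: deviations of same-numbered libraries correlated at -0.0297 to 0.393, and 6 of 9 pairs correlated best with their own number. The replicate block changed no call among the 9 genes. The falls of Gad1, Gad2, Slc32a1, Lhx6, Calb1 and Calb2 after OGD passed in all 8 other settings and all 9 fits that left out 1 library. Dlx1 in OGD with Wnt3a plus Rspondin 1 against control turned to 0.02 with library totals, 0.02 on log2(FPKM + 1) and 0.03 on log2(FPKM + 0.1), none past the threshold; library totals moved the median of all genes there to 0.14, from 0.03. Dlx2 passed in that comparison once, without Wnt3a plus Rspondin 1 replicate 1 (-0.35, adjusted p = 0.0349). Against OGD, Dlx2 ran from -0.24 to 0.03 and Lhx6 from -0.24 to 0.19 when 1 library was left out. Scaled to library totals without TMM factors, a gene at 3 counts had 0.12 to 0.21 CPM, which limits Lhx6 most.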
